A study of Mus musculus with 4 samples.

Results

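The clustered protocadherins are cadherin-type cell surface proteins encoded side by side in the alpha, beta and gamma clusters of mouse chromosome 18. Members were the rows whose gene symbol is Pcdha, Pcdhac, Pcdhb, Pcdhga, Pcdhgb or Pcdhgc followed by a number, whatever their level, which gave 57 of the 25050 genes in the table. They comprised 12 alpha, 21 beta, 12 gamma A and 7 gamma B rows and 5 C-type rows (Pcdhac1, Pcdhac2, Pcdhgc3, Pcdhgc4 and Pcdhgc5). The 57 rows carried 56 distinct symbols, since 2 Ensembl identifiers shared the symbol Pcdha11. RNA sequencing was done on 4 libraries of HT-22, an immortalised mouse hippocampal neuronal line, at passages 21 to 24. Nsmce1-overexpressing cells (labelled Nsmce1-pb, N31 and N32) gave 2 libraries, and wild type cells (labelled WT, PBIP1 and PBIP2) gave 2. The study's description calls the treated cells inducible for Nsmce1 and the controls uninduced. The Nsmce1 protein carries a RING domain and belongs to the SMC5/6 complex, a relative of cohesin that acts in chromosome maintenance. The promoter of the transgene, and whether each line is a single clone, are not given in the sources used here.

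Each alpha and gamma protocadherin has its own promoter and a large variable exon, which is spliced onto constant exons that all genes of its cluster use. Beta protocadherins have no constant exons. A neuron usually switches on a small set of these promoters by a largely random choice that involves CTCF, cohesin and DNA methylation, and cells carrying matching sets recognise each other by homophilic binding. The C-type genes at the ends of the alpha and gamma clusters are less subject to random choice and serve, in the mouse, neuronal survival and wiring.

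Values are normalised reads, obtained by undoing the log2 of the deposited values. The whole reads behind them came to 32516117 and 44602989 in the Nsmce1-overexpressing libraries and to 25787452 and 31010351 in the wild type libraries. Nsmce1 itself had 17851 and 16525 normalised reads in the overexpressing libraries and 1108 and 1206 in the wild type libraries (log2 fold change 3.89, SE 0.0856, limma adjusted p = 9.06e-05). Log2 values correlated with r = 0.983 between the overexpressing libraries, 0.981 between the wild type libraries and 0.977 to 0.980 between groups across the tested genes, where genes are not independent replicates. The labels do not tell whether replicate libraries stem from separate cultures, and p-values therefore reflect the spread among these samples alone. The labelled neuronal identity was thinly marked. Of 15 neuron markers 9 were in the table and 3 (Syn1, Tubb3 and Gap43) averaged 10 normalised reads or more. The list summed to 1494 and 1840 in overexpressing and 1866 and 1712 in wild type libraries. The 11 fibroblast and mesenchymal markers summed to 572688 and 498514 in overexpressing and 591098 and 529193 in wild type libraries. Across the 4 libraries, astrocyte markers summed to 5102 to 6786 and oligodendrocyte lineage markers to 14666 to 16769. Microglia and leukocyte markers summed to 1640 to 2338, and endothelial markers to 43.8 to 69.5. The lists hold unlike genes, so their sums do not rank cell types.

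In all 4 libraries the RNA of this family was dominated by Pcdhgc3, a C-type gamma gene, and by a few gamma A or gamma B genes, which were not the same in all 4 libraries. The summed level of the 57 rows was 15085 and 14218 normalised reads in the Nsmce1-overexpressing libraries and 15009 and 14844 in the wild type libraries, so the highest library exceeded the lowest 1.06-fold. In such bulk RNA, fewer cells using a gene and less RNA per cell cannot be told apart. No member passed the test for a difference between the groups. Pcdhga2 led the gamma A and B genes in 1 library of each group (overexpression replicate 2 and wild type replicate 1), Pcdhgb2 led in overexpression replicate 1 and Pcdhgb5 in wild type replicate 2. The leading gene thus did not follow the groups.

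**Figure D1:**
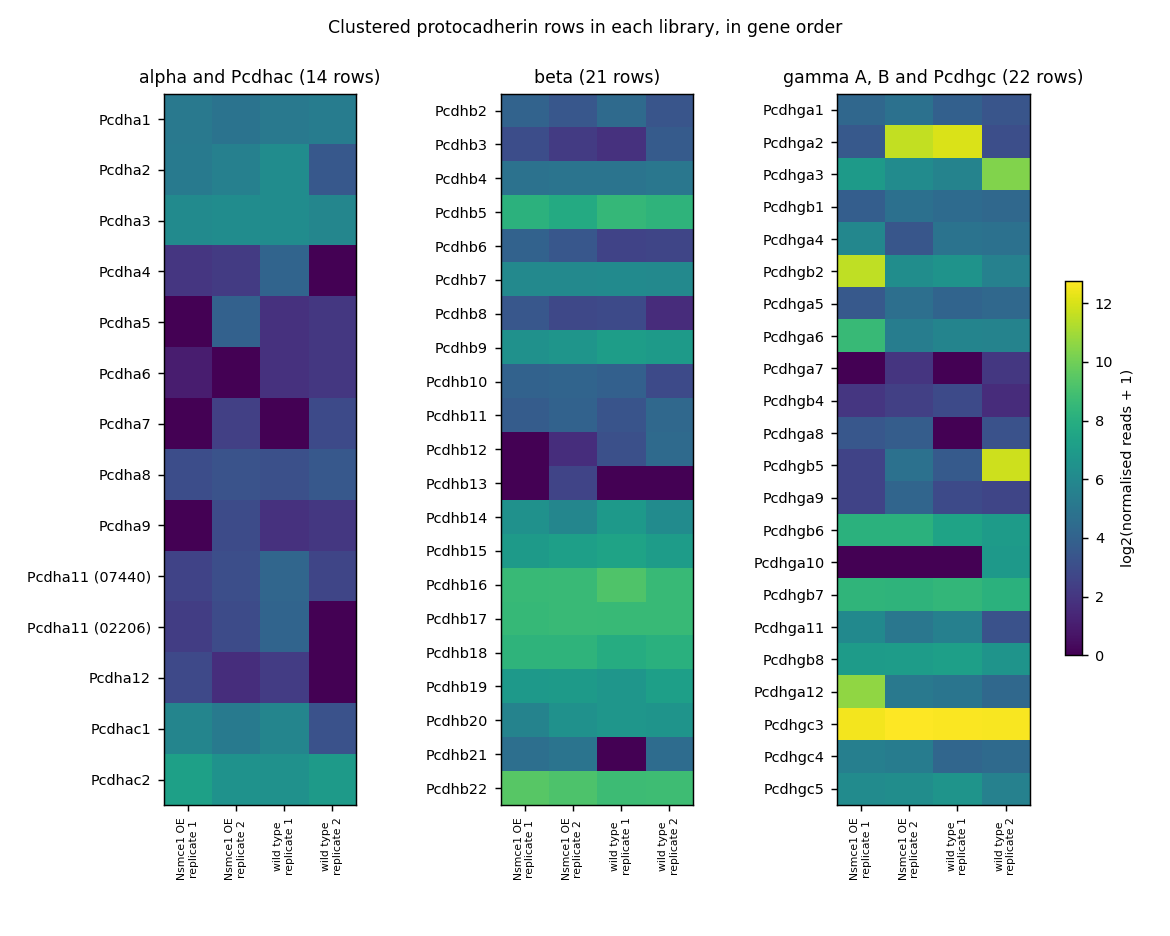
Level of each of the 57 rows (down, in gene order) in each of the 4 libraries (across), as log2(normalised reads + 1) on the colour scale. Pcdhgc3 is bright in every library, and most beta genes look alike in all 4, other than low ones such as Pcdhb21, Pcdhb12 and Pcdhb13. A single bright cell marks Pcdhga3, Pcdhgb2, Pcdhgb5 and Pcdhga12, and 2 bright cells mark Pcdhga2. The 2 rows named Pcdha11 carry the last digits of their Ensembl identifiers.

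At least 1 read was counted for 50 and 55 members in the overexpressing libraries and for 51 and 53 in the wild type libraries. Thinning every library to the 25787452 reads of the smallest left these counts as they were. At least 10 normalised reads were reached by 40 and 41 members in overexpressing and by 39 and 36 in wild type cells. A read was present in all 4 libraries for 44 members, in 3 libraries for 9, in 2 libraries for 2 and in a single library for 2. A count of 0 allows up to 3 reads, which are worth 3 and 2.19 normalised reads in the overexpressing libraries and 3.77 and 3.16 in the wild type libraries, covering counting error only. A mean of at least 10 normalised reads over all 4 libraries was required for testing and was met by 39 members. The other 18 had means of at most 8.88, and no single value of theirs exceeded 20.01 normalised reads.

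The gamma A and gamma B genes are among those from which a neuron chooses. Pcdhga2 had 11 and 3058 normalised reads in the overexpressing libraries and 4142 and 7.37 in the wild type libraries. It was thus high in overexpression replicate 2 and wild type replicate 1 and near the floor in the others, a 562-fold span with the groups overlapping. Pcdhgb5 had 5 and 26.3 normalised reads in overexpressing libraries and 11.3 and 3514 in wild type libraries, being high in wild type replicate 2 alone. Pcdhgb2 had 2964 and 76.6 normalised reads in overexpressing libraries and 91.8 and 47.4 in wild type libraries, being high in overexpression replicate 1 alone.

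Each of the other 4 gamma genes of this kind was high in 1 of the same libraries. Pcdhga12 had 1580 and 35.0 normalised reads in overexpressing and 30.2 and 19.0 in wild type libraries, and Pcdhga6 had 386 and 41.6 in overexpressing and 54.1 and 50.6 in wild type libraries. Both were highest in overexpression replicate 1, where Pcdhgb2 led, and the groups overlapped for Pcdhga6 but not for Pcdhga12. Pcdhga3 had 125 and 69.3 normalised reads in overexpressing libraries and 51.6 and 1279 in wild type libraries, and Pcdhga10 had 0 and 0 in overexpressing libraries and 0 and 118 in wild type libraries. Both were highest in wild type replicate 2, where Pcdhgb5 led.

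As a share of all gamma A and B reads of its library, Pcdhgb2 made up 49.5% (95% Wilson interval 48.2% to 50.8%) in overexpression replicate 1, followed by Pcdhga12 with 26.4% (25.3% to 27.5%). Pcdhga2 made up 72.8% (71.7% to 74.0%) in overexpression replicate 2 and 79.9% (78.6% to 81.1%) in wild type replicate 1. Pcdhgb5 made up 62.2% (60.9% to 63.5%) in wild type replicate 2, followed by Pcdhga3 with 22.6% (21.5% to 23.8%). These intervals cover counting error only.

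**Figure D2:**
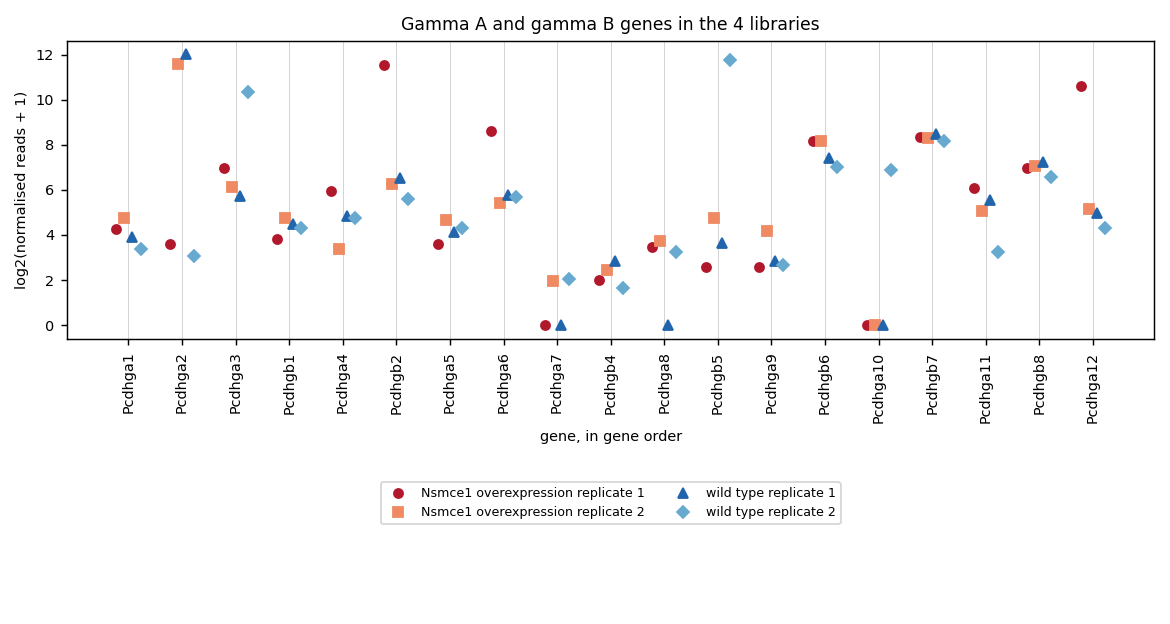
Log2(normalised reads + 1) of the 19 gamma A and gamma B genes in each of the 4 libraries (points, by library). Pcdhga2, Pcdhga3, Pcdhgb2, Pcdhga6, Pcdhgb5, Pcdhga10 and Pcdhga12 each have 1 or 2 libraries far above the others, while the 4 points of Pcdhgb7 lie close together.

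A library span of at least 3 log2 units was seen in 8 of the 39 tested members, a threshold chosen after the values were seen, and in 1.3% of the 15540 tested genes. Pcdhga10 is among the 8 and passed the filter on low values only through wild type replicate 2, the library that also gives its span, so the count is a description and supports nothing. The 8 were the 7 gamma genes above and Pcdhb21, which had 24 and 29.2 normalised reads in overexpressing libraries and 0 and 22.1 in wild type libraries. The tested members had lower levels than other genes (median of the means 84.8, against 718 normalised reads over all tested genes), and the part of level in their spread was not tested. Among the 15 tested gamma A and B genes, the median difference between the libraries of a group was 0.99 log2 units in overexpressing and 0.64 in wild type cells. Among the 16 tested beta genes it was 0.21 and 0.28, and among all tested genes 0.15 and 0.15.

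Of the other gamma A and B genes, Pcdhgb7, Pcdhgb6 and Pcdhgb8 were the most abundant, and each was within 2.22-fold across the 4 libraries. Pcdhgb7 had 320 and 318 normalised reads in overexpressing libraries and 351 and 288 in wild type libraries (log2 fold change 0.0053, 95% interval -0.37 to 0.38). Pcdhgb6 had 285 and 288 normalised reads in overexpressing libraries and 167 and 130 in wild type libraries. Both overexpressing libraries lay above both wild type libraries, with a log2 fold change of 0.96 (SE 0.182), but the difference missed the threshold over all genes (limma adjusted p = 0.203). Pcdhgb8, annotated as a polymorphic pseudogene, had 126 and 132 normalised reads in overexpressing and 148 and 94.8 in wild type libraries. Pcdhga11 and Pcdhga4 were low and uneven, and for both the groups overlapped. Pcdhga11 had 66 and 32.8 normalised reads in overexpressing and 46.5 and 8.43 in wild type libraries, and Pcdhga4 had 60 and 9.49 in overexpressing and 27.7 and 26.3 in wild type libraries. Pcdhga1, first in the gamma cluster, had 18 and 26.3 in overexpressing and 13.8 and 9.48 in wild type libraries, without overlap.

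Summed by class, gamma A came to 2272 and 3329 normalised reads in overexpressing and 4389 and 1553 in wild type libraries. Gamma B came to 3716 and 870 in overexpressing and 797 and 4095 in wild type libraries. Gamma A was high where gamma B was low in both groups, and the highest library exceeded the lowest 2.83-fold for gamma A and 5.14-fold for gamma B. Taken as a single class, gamma A and B came to 5988 and 4199 normalised reads in overexpressing and 5186 and 5648 in wild type libraries, a span of 1.43-fold (5093 ± 1265 and 5417 ± 327, SD, n = 2 each). The 7 widely spanning genes alone summed to 5071 and 3307 in overexpressing and 4381 and 5035 in wild type libraries, while the other 12 summed to 917 and 892 in overexpressing and 805 and 613 in wild type libraries.

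**Figure D3:**
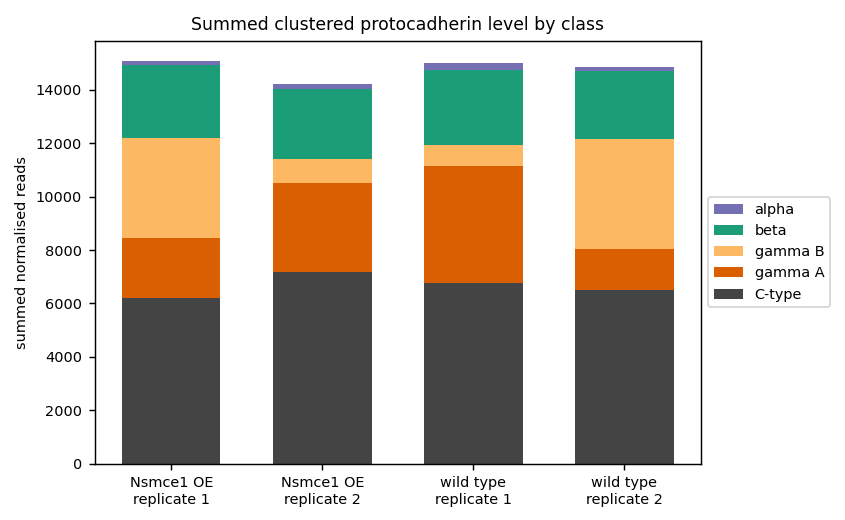
Summed normalised reads of the 5 classes (stacked) in each library, with bars starting at 0. The totals run from 14218 to 15085, and the gamma A and gamma B blocks trade size between libraries while the beta and C-type blocks stay similar.

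In the GENCODE M21 annotation (GRCm38), whose build differs from the mm9 named in the submitters' notes, all 22 gamma members share 2116 exonic bases and all 14 alpha and Pcdhac members share 2860. Bases shared with any other gene on the strand made up 31.5% to 66.8% of the exonic length of gamma A and B genes. A read from the bases common to all members matches every gene of the cluster, and a read from other shared bases matches some other gene. The division of reads among gamma genes, or among alpha genes, is therefore uncertain. The part of the shared exons in the library differences was not tested, since the table holds 1 value per gene. The annotation holds 5 further genes that share exons with members and are not used here. Of the 21 beta rows, 19 share no exonic base with another gene on their strand, and Pcdhb21 and Pcdhb22 share 455.

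Pcdhgc3, the most abundant member, had 5871 and 6952 normalised reads in overexpressing libraries and 6501 and 6294 in wild type libraries. The groups overlapped, with means of 6411 ± 764 and 6397 ± 147 in overexpressing and wild type cells (SD, n = 2 each), and the log2 fold change was -0.0018 with a 95% interval of -0.24 to 0.24. It made up 94.8% and 96.6% of C-type reads in overexpressing and 96.2% and 96.9% in wild type libraries. Pcdhgc4, the isoform that neuronal survival depends on in mice, had 45 and 39.4 normalised reads in overexpressing and 17.6 and 20.01 in wild type libraries. The groups did not overlap, and the difference did not pass over all genes (log2 fold change 1.12, SE 0.335, limma adjusted p = 0.465). Pcdhgc5 had 70 and 74.5 normalised reads in overexpressing and 95.6 and 47.4 in wild type libraries.

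The alpha genes were the lowest class, with a summed level of 165 and 201 normalised reads in overexpressing and 250 and 139 in wild type libraries over its 12 rows. Pcdha3 had 68 and 73.0 normalised reads in overexpressing and 72.9 and 56.9 in wild type libraries, and Pcdha1 had 35 and 27.7 in overexpressing and 35.2 and 40.0 in wild type libraries. Pcdha2 had 36 and 45.99 normalised reads in overexpressing libraries and 72.9 and 10.5 in wild type libraries, so its wild type libraries lay on either side of both others. The other 9 alpha rows were not tested, with means of at most 8.79 normalised reads. The rows named Pcdha11 had 5 and 7.30 normalised reads in overexpressing and 17.6 and 5.27 in wild type libraries (identifier ENSMUSG00000007440) and 4 and 6.57 in overexpressing and 16.3 and 0 in wild type libraries (ENSMUSG00000102206). Both were highest in wild type replicate 1, as Pcdha4 was. Bases shared with other genes made up 38.9% to 91.4% of the exonic length of alpha rows, with Pcdha4 the highest. These rows may thus not be independent of each other, which was not tested. Of the C-type alpha genes, Pcdhac2, whose isoform is needed for the spacing of serotonergic axons in mice, had 154 and 90.5 normalised reads in overexpressing and 88.02 and 123 in wild type libraries. Pcdhac1 had 56 and 38.0 in overexpressing and 55.3 and 8.43 in wild type libraries, with wild type replicate 2 apart from the rest. Wild type replicate 2 was also the lowest library for a number of other tested members, such as Pcdha2, Pcdha3, Pcdhga11, Pcdhgb6, Pcdhgb8 and Pcdhgc5. Other members were lowest in another library, and how often each library was lowest over all genes was not counted.

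The beta genes were the most even class, with sums of 2736 and 2625 normalised reads in overexpressing and 2816 and 2564 in wild type libraries. Pcdhb22 had 709 and 582 normalised reads in overexpressing libraries and 431 and 444 in wild type libraries. Both overexpressing libraries were above both wild type libraries (log2 fold change 0.55, SE 0.137), but the difference did not pass over all genes (limma adjusted p = 0.362). Its share of beta reads was 25.9% (24.3% to 27.6%) and 22.2% (20.8% to 23.6%) in overexpressing and 15.3% (13.9% to 16.9%) and 17.3% (15.9% to 18.9%) in wild type libraries, with 95% Wilson intervals. Counting error alone is covered by these intervals, and those of the overexpressing libraries do not overlap each other.

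Pcdhb17 was the steadiest of the abundant beta genes, at 379 and 395 normalised reads in overexpressing and 392 and 383 in wild type libraries (log2 fold change -0.0035, 95% interval -0.30 to 0.29). Pcdhb16 had 385 and 405 normalised reads in overexpressing libraries and 599 and 384 in wild type libraries, where wild type replicate 1 stood above the other 3. Pcdhb18 had 311 and 312 in overexpressing and 241 and 275 in wild type libraries, without overlap (log2 fold change 0.27, SE 0.144). Pcdhb5, Pcdhb9, Pcdhb20 and Pcdhb7 lay the other way without overlap. Pcdhb5 had 298 and 224 normalised reads in overexpressing and 362 and 314 in wild type libraries, and Pcdhb9 had 87 and 101 in overexpressing and 138 and 122 in wild type libraries. Pcdhb20 had 52 and 88.3 in overexpressing and 102 and 96.9 in wild type libraries, while Pcdhb7 differed least, with 63 and 63.5 in overexpressing and 67.9 and 64.2 in wild type libraries. Of these 5 genes 0 passed, and the smallest limma adjusted p was 0.651, for Pcdhb9. The groups overlapped for Pcdhb15 (125 and 145 normalised reads in overexpressing and 171 and 134 in wild type libraries), Pcdhb19 (113 and 125 in overexpressing and 103 and 147 in wild type) and Pcdhb14 (88 and 57.7 in overexpressing and 114 and 70.6 in wild type). Beside Pcdhb21, the other tested beta genes were Pcdhb4, Pcdhb2, Pcdhb11 and Pcdhb10, whose highest value in any library was 32.6 normalised reads. The 5 untested beta genes were Pcdhb3, Pcdhb6, Pcdhb8, Pcdhb12 and Pcdhb13, of which Pcdhb12 had 0 and 2.19 normalised reads in overexpressing and 7.54 and 20.01 in wild type libraries.

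Per kilobase of annotated exon, and averaged over the 4 libraries, Pcdhb16, Pcdhb5, Pcdhb17 and Pcdhb22 stood level at 84.8, 84.7, 83.1 and 82.0 normalised reads per kilobase. Their library values overlapped, running from 73.6 to 115, from 63.4 to 102, from 81.3 to 84.7 and from 65.3 to 107. Pcdhb18 and Pcdhb15 followed at 56.5 and 51.3, then Pcdhb9 at 36.7, Pcdhb20 at 23.8, Pcdhb7 at 18.5 and Pcdhb19 at 17.1 normalised reads per kilobase. The library values of Pcdhb18 (47.9 to 61.8) and Pcdhb15 (44.6 to 61.1) overlapped, and all lay below those of Pcdhb17. Pcdhb14 had 9.51 and Pcdhb4 7.92 normalised reads per kilobase, and every other beta gene had at most 4.96. Pcdhb21, the neighbour with which Pcdhb22 shares bases, had 4.002 normalised reads per kilobase.

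Of the 39 tested members, 0 were called at a limma adjusted p under 0.05, where 0.193% of all tested genes were, and voom on whole reads also called 0. In each direction the members' count was 0, against 0.103% of all tested genes higher and 0.0901% lower in overexpressing cells. Before adjustment, limma gave 3 members a p under 0.05, namely Pcdhgb6, Pcdhb22 and Pcdhgc4, all with a positive log2 fold change, against 7.92% of all tested genes. Of the tested members, 20 lay above and 19 below 0, with a median log2 fold change of 0.0053 beside 0.0054 over all tested genes. The groups did not overlap in 13 of them, a share of 33.3% against 39.1% of all tested genes. Of these, 8 were higher in overexpressing cells (20.8% of all tested genes were) and 5 lower (18.3%). An exact two-sided permutation test of 2 against 2 libraries cannot go below p = 0.333, and calls rest on limma's pooled variance.

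The median SE of a member's log2 fold change was 0.338, against 0.133 over all tested genes, and for gamma A and B genes it was 0.803. A change of 2-fold in most gamma A or B genes was therefore not detectable here. Pcdhga2 shows this best, with a log2 fold change of 0.041 and a 95% interval from -8.34 to 8.42. Even with an SE of 0.182, Pcdhgb6 missed the threshold at a log2 fold change of 0.96 (limma adjusted p = 0.203). The median SE was 0.320 for alpha, 0.235 for beta and 0.335 for C-type genes. A 2-fold change in most genes of these classes could thus also be missed. Without overexpression replicate 2, Pcdhga12, Pcdhgb2 and Pcdhga6 passed over all genes (log2 fold changes 5.99, 5.47 and 2.86, limma adjusted p = 0.00458, 0.00747 and 0.0222), all on the single library in which they were high.

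**Figure D4:**
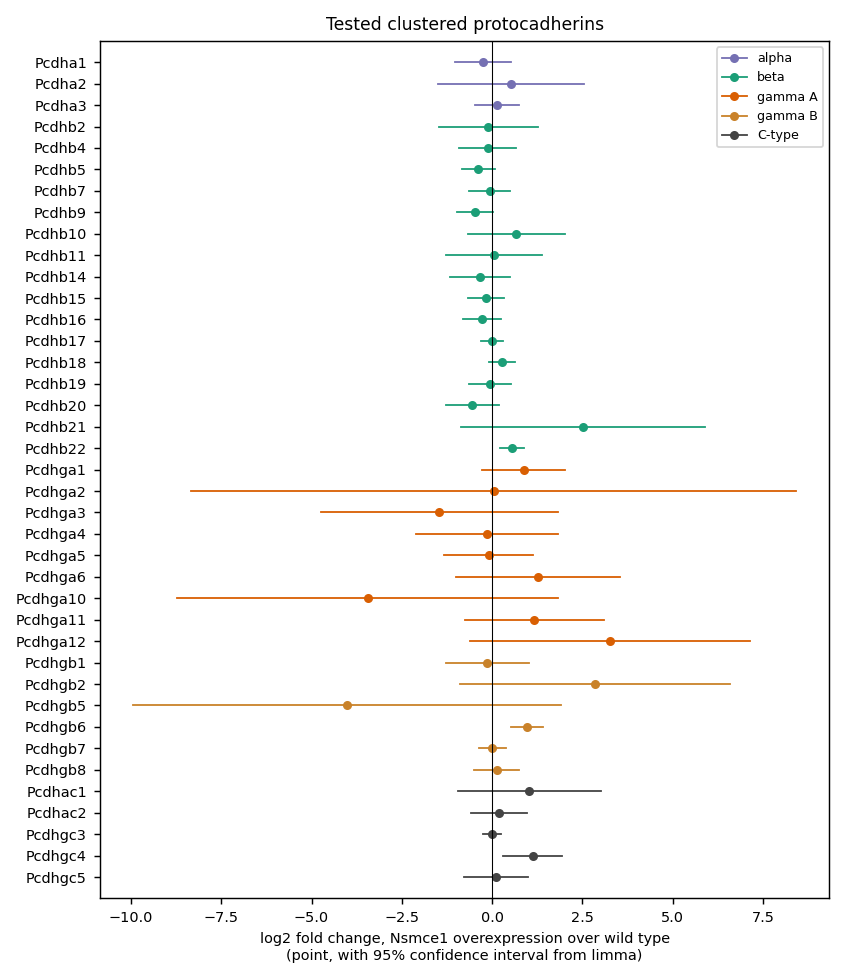
Log2 fold change of Nsmce1 overexpression over wild type (points) with 95% confidence intervals from limma (lines) for the 39 tested members, coloured by class. The interval of Pcdhb21 is the widest among beta genes, that of Pcdhb22 (0.22 to 0.89) lies above 0, and those of the other beta genes cross 0, while Pcdhga2, Pcdhgb5, Pcdhga10, Pcdhga12 and Pcdhgb2 have the widest intervals. Those of Pcdhgb6 (0.51 to 1.40) and Pcdhgc4 (0.31 to 1.94) also lie above 0. The intervals are not adjusted for the number of genes tested.

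Among 30 genes whose proteins act in protocadherin promoter choice, 0 passed the limma test and 4 had an unadjusted p under 0.05, where 0.193% and 7.92% of all tested genes did. Their median log2 fold change was 0.095, with 22 above and 8 below 0, while 7967 of all 15540 tested genes lay above 0 (median 0.0054). The same background holds for the lists that follow. Ctcf, which binds the protocadherin promoters and enhancers, had 3660 and 4248 normalised reads in overexpressing and 3571 and 3801 in wild type libraries. The cohesin subunit Rad21 had 18523 and 20217 in overexpressing and 18535 and 19154 in wild type libraries, and Smchd1, a repressor of these clusters in mice, had 8392 and 8423 in overexpressing and 8453 and 8022 in wild type libraries. The groups overlapped for all 3 of these genes. Over the list, 11 genes were higher and 5 lower in overexpressing cells without overlap (20.8% and 18.3% of all tested genes were). Among the 5 were the cohesin subunits Smc3 and Smc1a. Smc3 had 12092 and 12103 normalised reads in overexpressing and 13459 and 12856 in wild type libraries. Dnmt3b, the methyltransferase that marks these promoters in mouse embryos, was low, with 131 and 208 normalised reads in overexpressing and 127 and 165 in wild type libraries.

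The smallest p of the list belonged to Tet2, an enzyme that oxidises methylated cytosine. It had 1349 and 1156 normalised reads in overexpressing and 840 and 720 in wild type libraries (log2 fold change 0.68, SE 0.129, limma adjusted p = 0.202). The related Tet3 (log2 fold change 0.27), the DNA methyltransferase Dnmt3a (0.47) and the histone methyltransferase Ehmt1 (0.26) followed, each without overlap of the groups and with limma adjusted p of 0.563, 0.594 and 0.609.

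Cytoplasmic partners gave 0 called genes of 19 tested and 1 with an unadjusted limma p under 0.05 (7.92% of all tested genes), with 15 above and 4 below 0 and a median of 0.054. Fyn, a Src family kinase, had 2294 and 2310 normalised reads in overexpressing and 2040 and 1909 in wild type libraries (limma adjusted p = 0.584). Wasf1, of the WAVE complex that protocadherin tails recruit, had 707 and 773 in overexpressing and 578 and 639 in wild type libraries. Of the 8 proteases and gamma-secretase subunits that cleave protocadherins, 0 were called and 0 had an unadjusted limma p under 0.05, with 4 above and 4 below 0. Adam10, which sheds the extracellular part, had 7052 and 6796 normalised reads in overexpressing and 6504 and 4120 in wild type libraries (limma adjusted p = 0.678), and Aph1c, a gamma-secretase subunit, had 180 and 173 in overexpressing and 131 and 155 in wild type libraries.

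Outside the clusters, 6 of 12 non-clustered protocadherins were tested and 0 called, 1 with an unadjusted limma p under 0.05, with 3 above and 3 below 0 (median 0.030). Pcdh7 had 532 and 488 normalised reads in overexpressing and 302 and 272 in wild type libraries, which did not overlap (log2 fold change 0.83, SE 0.133, limma adjusted p = 0.133). Pcdh17 had 41 and 52.6 in overexpressing and 81.7 and 57.9 in wild type libraries. Pcdh19 had 3477 and 3510 in overexpressing and 3815 and 1771 in wild type libraries, with wild type replicate 2 low. Classical cadherins and catenins gave 0 called of 6 tested and 1 with an unadjusted limma p under 0.05, with 3 above and 3 below 0 (median -0.0011). Cdh1, the epithelial cadherin, had 182 and 196 normalised reads in overexpressing and 251 and 334 in wild type libraries (limma adjusted p = 0.480), and the catenin gene Ctnnd1 had 7925 and 7710 in overexpressing and 7492 and 7376 in wild type libraries.

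Of 22 tested genes that flank the clusters or lie between them, 1 fell and 0 rose, with 11 above and 11 below 0 and a median of 0.00012. Slc35a4, of the nucleotide sugar transporter family and 12 genes before the first alpha protocadherin in the table, had 508 and 680 normalised reads in overexpressing and 2139 and 2314 in wild type libraries (adjusted p = 0.0147 in limma, at a log2 fold change of -1.92 with an SE of 0.153). It missed the threshold in limma without a trend (adjusted p = 0.256) and without wild type replicate 1 or 2 (adjusted p = 0.149 and 0.161). No tested gene on the list nearer to the clusters passed. Taf7, a basal transcription factor gene between the beta and gamma clusters, had 351 and 368 normalised reads in overexpressing and 278 and 365 in wild type libraries. Diaph1, a formin gene just past the gamma cluster, had 3294 and 3111 in overexpressing and 3313 and 3372 in wild type libraries. Hdac3, a histone deacetylase gene and the next protein-coding gene after Diaph1 in the table, had 4755 and 3179 in overexpressing and 3150 and 3147 in wild type libraries. Its overexpression replicate 1 stood apart from the other 3. Over the 386 tested genes of chromosome 18 the median log2 fold change was 0.011.

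**Figure D5:**
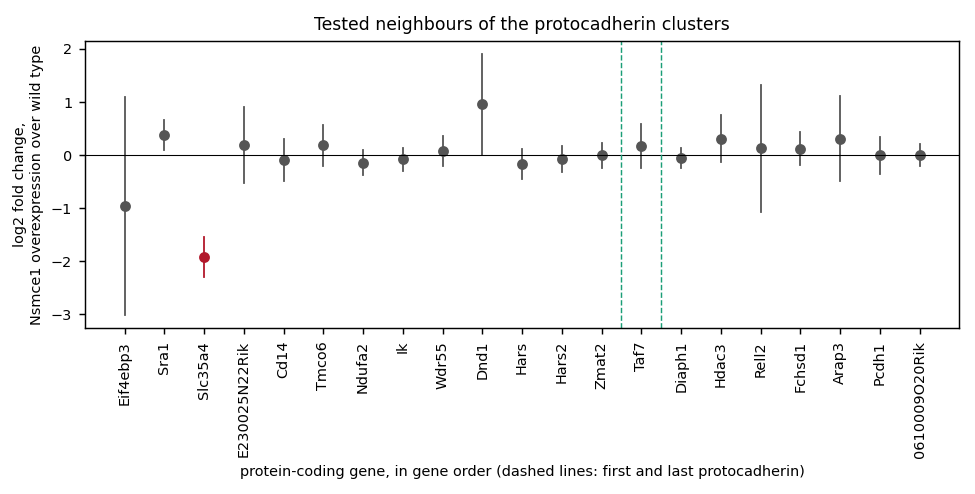
Log2 fold change of Nsmce1 overexpression over wild type (points) with 95% confidence intervals from limma (lines) for tested protein-coding genes around the clusters, in gene order, with dashed lines at the first and last protocadherin. Slc35a4 (red) lies at -1.92, and the genes next to the dashed lines lie near 0. Dnd1 lies at 0.95 and Eif4ebp3 at -0.96, with intervals that cross 0.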

How the data were processed

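RNA-seq of 2 Nsmce1-overexpressing and 2 wild type HT-22 libraries was used. Per the labels' protocols, Trizol was used for RNA and a TruSeq kit for libraries, and the sequencing protocol was that of BGISEQ500. HISAT, Cufflinks and mm9 stand in the submitters' processing notes. The use of strand and the division of reads among overlapping genes are not given in the sources used here. In the table deposited by the authors, values are log2 of (normalised read count + 1). Undoing the log2 gave whole multiples of 1 step per library for 100% of values (tolerance 0.001 read), which gave the whole reads. Gene order and exon sharing were read from GENCODE M21 (GRCm38), matched by identifier. No coordinates are given, since the builds differ, and no sequences are shown.

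Group was the only term in limma 3.58.1 (R 4.3.3) with a variance trend, fitted to the deposited log2 values of 15540 genes with a mean of at least 10 normalised reads. P-values are two-sided, with Benjamini-Hochberg adjustment over all tested genes and a threshold of 0.05. Because 1 is added before the log2, fold changes of low genes are understated. The steps were tested on simulated data with little spread between libraries and changes planted only in abundant genes. That test does not cover members that are low or vary widely. Members and lists were chosen with earlier results of these data known. Named members are the 30 of highest mean among those tested, and of each other list the called gene or the 2 to 4 members of smallest p. Genes named outside this were chosen after their values were seen. They include Pcdhb21, Pcdhb12, Pcdhga10, Pcdhga1, the Pcdha11 rows, Ctcf, Rad21, Smc3, Smc1a, Smchd1, Dnmt3b, Dnd1, Eif4ebp3, Taf7, Diaph1 and Hdac3. Alternatives were pseudocounts, filters, normalisations, variance models, voom on whole reads, the replicate number as a block and leaving out each library. Replicate libraries were not copies of each other (chi-square per gene 25.7 in overexpressing and 18.1 in wild type cells) and were counted separately. Between libraries of different groups it ran from 24.1 to 29.1, a range that holds the value of the overexpressing pair.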

Additional observations from a re-analysis of the deposited data

How the results depend on the processing

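In each of the 10 settings that kept all 4 libraries, 0 protocadherins were called, and leaving out 1 library gave 0 to 3. The count over all genes was 30, and moved to 16 without a filter, 18 with quantile normalisation, 9 in limma without a trend, 72 with robust variances and 60 with the replicate block, and to between 2 and 75 with 1 library left out. The replicate numbers did not pair the samples (correlation of same-numbered deviations 0.0068), and with the block 0 members were called. Of the flanking genes 1 was called, against 0 in limma without a trend and 0 to 1 with 1 library left out. The ratio of summed levels, overexpression over wild type, was 0.94 for alpha, 0.943 for gamma A, 0.938 for gamma B, 1.01 for C-type and 0.94 for gamma A and B together. With 1 library left out it ran from 0.731 to 1.32 for alpha, 0.638 to 1.80 for gamma A, 0.356 to 2.88 for gamma B, 0.935 to 1.09 for C-type and 0.775 to 1.11 for gamma A and B. For the 12 gamma A and B genes without a wide span, a grouping chosen after seeing the data, it was 1.28. At least 50 normalised reads were reached by 25 and 21 members in overexpressing and 24 and 21 in wild type libraries. The causes of these moves were not tested.

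Some log2 fold changes close to 0 changed sign: Pcdhgc3 (9.15e-05) and Pcdhb17 (0.00058) with voom, Pcdhga2 with a pseudocount of 5 (-0.033) and with quantile normalisation (-0.025), and Pcdhgb7 with quantile normalisation (-0.0040). With 1 library left out, 18 of the 30 named members changed sign at least once. Their ranges were -0.12 to 0.12 for Pcdhgc3, -4.43 to 4.52 for Pcdhga2, -8.10 to 0.055 for Pcdhgb5, -3.76 to 0.84 for Pcdhga3, -0.14 to 0.15 for Pcdhgb7, -0.32 to 2.86 for Pcdhga6, -0.20 to 0.44 for Pcdhgb8 and -1.42 to 1.12 for Pcdhga4. For beta genes they were -0.60 to 0.039 for Pcdhb16, -0.033 to 0.026 for Pcdhb17, -0.34 to 0.011 for Pcdhb15, -0.31 to 0.20 for Pcdhb19 and -0.68 to 0.014 for Pcdhb14. For the others they were -0.20 to 0.56 for Pcdhac2, -0.40 to 0.60 for Pcdhgc5, -0.049 to 0.30 for Pcdha3, -0.83 to 1.85 for Pcdha2 and -0.26 to 2.32 for Pcdhac1.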
